A study of Mus musculus with 8 samples.

Results

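Selective autophagy and mitophagy receptors are the proteins that recognise a cargo, such as an aggregate, a stretch of endoplasmic reticulum or a damaged mitochondrion, and tie it to the growing autophagosome. The 10 receptor genes described here, Sqstm1, Nbr1, Optn, Calcoco1, Tax1bp1, Tollip, Wdfy3, Bnip3, Bnip3l and Fundc1, were taken by symbol from the table with gene names, as 10 of 24213 genes with a symbol. A feature is a set of probes summarised to 1 value; among features of the same symbol, that of highest average signal stands for the gene. Of the receptors, 7 had 1 feature and 3 had 2. RNA came from bone marrow cells of C57BL/6 mice, double sorted as hematopoietic stem cells (negative for lineage markers, Flk2 and CD48, positive for c-Kit, Sca-1 and CD150). The 4 control mice carried floxed Atg12 alleles (Atg12flox/flox), and the 4 conditional knockout mice carried the same alleles with Mx1-Cre, a recombinase gene driven by an interferon-responsive promoter that acts in many cell types. Mice of both genotypes received poly(I:C), which mimics viral RNA and induces interferon, at 4 weeks of age. Each array is taken here as RNA of a single mouse, killed after a further 2 to 3 months at a labelled age of 3 to 4 months. Since only the knockout mice carried Cre, loss of Atg12 and presence of Cre cannot be told apart here.

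In the cell, most receptors carry a short motif that binds LC3 and GABARAP proteins, the ubiquitin-like proteins attached to the autophagosome membrane. That attachment needs the Atg12-Atg5 conjugate, so without Atg12 the delivery of cargo and receptor to the lysosome is impaired. Delivery was not measured here. The p62 protein, made from Sqstm1, is itself degraded by autophagy and is widely used as a marker because it accumulates when the pathway is blocked. Arrays measure RNA only, so the values below address whether the transcripts of the receptors differ in the knockout cells. In bulk samples such as these, fewer cells with a transcript and less transcript per cell cannot be told apart.

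All values are log2 RMA signals, in which 1 unit is a doubling; a level can be compared between arrays for 1 gene, but not between genes. Atg12 signal was 6.41, 6.37, 6.55 and 6.42 in controls 1 to 4 and 5.66, 5.45, 5.35 and 5.56 in knockouts 1 to 4. Every knockout array lay below every control array, with a log2 difference of -0.93 (SE 0.10; limma adjusted p = 0.031), so the targeted transcript fell in the mice labelled knockout. With any 1 array left out, the adjusted p of Atg12 lay between 0.054 and 0.226. The receptor transcripts were all detected: each of the 10 lay above 3.19, the 95th percentile of olfactory and vomeronasal receptor features on these arrays, on all 8 arrays. Among 10 stem cell marker genes, the means of 8 exceeded that level, the exceptions being Slamf1 (CD150) and Mecom. Cd48, a marker absent from the sort gate, read 8.53 to 8.69 on all 8 arrays. Flt3 (Flk2), the other marker absent from the gate, read 4.78 to 5.61, above the background level of 3.19 on all 8 arrays. The RNA signals of Slamf1, Cd48 and Flt3 thus ran against the labelled gate, which was set on proteins. The reason was not tested. All 5 myeloid progenitor markers were far above the background level, with an average over the list of 11.61 to 11.67 in controls and 11.60 to 11.71 in knockouts. Markers of megakaryocytes, mast cells and basophils, granulocytes, macrophages, B cells, T and NK cells and endothelial cells had 0 genes past the test in each list. Some marker genes nonetheless had large differences at adjusted p of 0.686 or more (limma): Ly6a (Sca-1, a marker of the sort gate) was at 0.65, Tfrc (the transferrin receptor) at 0.74, Lcn2 (a granulocyte protein) at 0.66, Pf4 (a platelet chemokine) at -1.40 and Cpa3 (a mast cell protease) at -1.16. The groups did not overlap for Tfrc, Lcn2 and Cpa3. Among the other markers they did not overlap for Mcpt8, Nkg7 and Cd79a, all lower in knockouts. Cd79a lay below the background level on all 8 arrays. Over all genes, 2.90% did not overlap in either direction. Lcn2 was the 1 granulocyte gene of 6 above 0, with 5 below 0 and a list median of -0.30. Of the 6 megakaryocyte genes, 5 were below 0 and 1 above, with a median of -0.07, so Pf4 stood far from its list. The stem cell list had 6 genes below 0 and 4 above, and the mast cell and basophil list had 4 below 0. The makeup of the sorted cells, and its part in the receptor values, was not tested. Knockout 3 stood apart on the first principal component (39.5 against -14.8 to 12.2 for the others). Sex is not in the labels. Xist signal was high on control 4 and knockouts 1, 2 and 4, and Y-linked signal on controls 1, 2 and 3 and knockouts 3 and 4. Knockout 4 was thus high in both, with Xist at 8.12 and a Y-linked mean of 5.83. The other arrays high in Xist read 9.40 to 9.50, with a Y-linked mean of 1.98 to 2.31. The other arrays high in Y-linked signal had Xist at 2.42 to 3.15. That each array held RNA of 1 mouse is an assumption, and for knockout 4 it was not tested.

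None of the 10 receptor transcripts differed between knockout and control by the test across all genes (limma, 0 of 10 at an adjusted p under 0.05, against 1 gene, Atg12, or 0.00413% of all genes). Adjusted p was 0.9996 for every receptor. At an unadjusted p under 0.05 there were also 0 of 10 receptors, against 4.94% of all genes. Differences lay between -0.20 (Bnip3) and 0.16 (Wdfy3), and 5 of the 10 lay within 0.1 of 0. The difference was below 0 for 7 receptors and above 0 for 3, where 49.4% of all genes, and 53.1% of the 14771 genes above the background level, had a difference below 0. The median over the receptors was -0.06, beside 0.002 over all genes. Without control 1 that median was -0.13, and without control 4 it was -0.01.

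**Figure D1:**
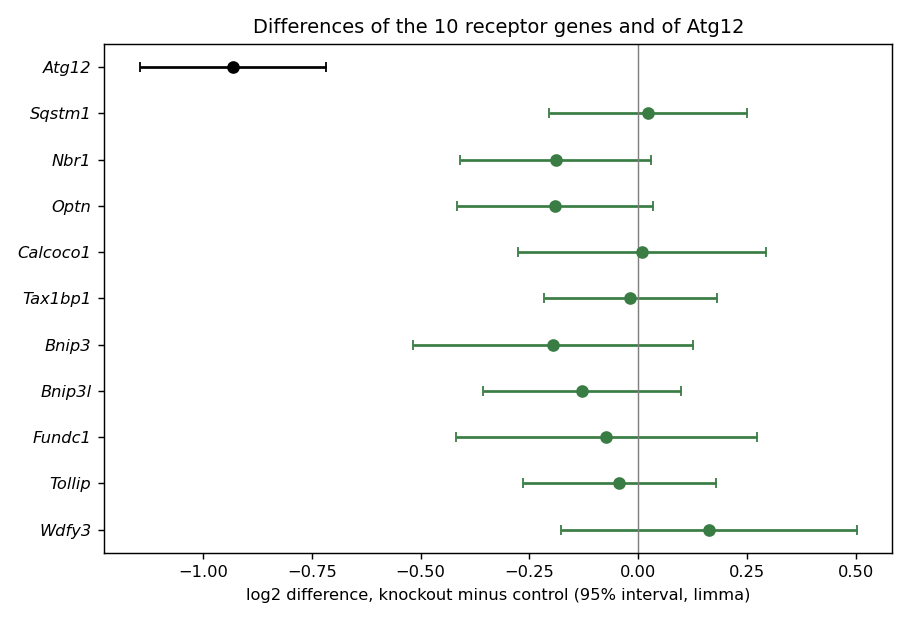
Log2 difference between 4 knockout and 4 control arrays (x axis) for Atg12 and the 10 receptor genes (y axis), with bars for the 95% interval from limma. The Atg12 interval, -1.15 to -0.72, lies apart from 0, while each receptor's interval includes 0.

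The intervals bound how large a change these arrays could have missed. On the scale of the control signal, the 95% intervals of the 10 receptors together ran from 69.8% to 142% of control. Tax1bp1, with the smallest SE, had an interval of 86.0% to 113%, and Wdfy3, at the upper end, one of 88.4% to 142%. An interval that includes 100% does not show that a transcript was the same in both genotypes.

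Receptors that recognise ubiquitin-tagged cargo in the cytosol come first. Sqstm1, encoding p62, which joins ubiquitin chains to LC3, read 6.58, 6.84, 6.83 and 6.71 in controls 1 to 4 and 6.57, 6.86, 6.85 and 6.77 in knockouts 1 to 4. The groups overlapped almost wholly, with control 1 and knockout 1 the lowest of each. Group means were 6.74 ± 0.12 and 6.76 ± 0.13 (SD, n = 4 arrays each), a difference of 0.02 (SE 0.10), or 102% of control with a 95% interval of 86.8% to 119%.

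Nbr1 encodes a receptor built like p62, with a ubiquitin-binding domain at one end, which takes part in clearing aggregates and peroxisomes. Its signal was 6.01, 6.17, 6.01 and 6.10 in controls and 5.98, 5.92, 5.67 and 5.96 in knockouts. Nbr1 was the receptor whose groups did not overlap, all 4 knockout arrays lying below all 4 control arrays; 2.90% of all genes separated in either direction and 1.54% in this one, and Nbr1 ranked 1972 of 24213 by p. The gap between the lowest control and the highest knockout was small beside the spread of each group (6.07 ± 0.08 and 5.88 ± 0.14). The difference was -0.19 (SE 0.10; limma p = 0.083, adjusted p = 0.9996; exact permutation p = 0.0286, two-sided, a value no design of 4 against 4 can go below, unadjusted for the 10 receptors), or 87.7% of control with an interval of 75.3% to 102%. Without knockout 3, the lowest array, it was -0.12, and it was -0.27 (adjusted p = 0.559) when Xist signal entered the fit. Among the arrays high in Xist and low in Y-linked signal, control 4 read 6.10 and knockouts 1 and 2 read 5.98 and 5.92. Controls 1, 2 and 3 and knockout 3 were high in Y-linked signal and low in Xist, and knockout 4 was high in both. These signals and genotype were therefore partly tied, and the part of sex in the Nbr1 difference was not tested.

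Nbr1 and Bnip3 are the receptors for which promoter windows are printed. Nbr1 was the one whose groups separated. Bnip3 had the difference of largest size among the kept features and the only E-box among the windows scanned. The kept Bnip3 feature stood among genes of chromosome 14, however, while the printed window lies on chromosome 7. The Bnip3 feature among genes of chromosome 7 was at -0.13. What the kept feature hybridises to was not tested. Each window runs from 250 bases before to 50 after a transcript start (RefSeq, GRCm38.p6), read 5′ to 3′ on the gene's strand. Capitals mark matches on either strand to ACGTG or to CACGTG, the E-box core bound by TFEB and TFE3. ACGTG is 1 form of the core of the element bound by the hypoxia factor HIF-1. The other form, GCGTG, was not searched and is not marked. Every CACGTG also holds ACGTG, so these 2 overlap. The Nbr1 window lies at chr11:101551857-101552156 (+), 1 of 2 windows for that gene, and the Bnip3 window at chr7:138909457-138909756 (-).
Nbr1: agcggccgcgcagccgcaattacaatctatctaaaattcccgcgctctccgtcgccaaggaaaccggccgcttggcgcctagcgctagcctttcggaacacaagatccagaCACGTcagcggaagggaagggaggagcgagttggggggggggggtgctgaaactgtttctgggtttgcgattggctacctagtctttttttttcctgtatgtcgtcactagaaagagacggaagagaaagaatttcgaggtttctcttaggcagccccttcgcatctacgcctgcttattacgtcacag
Bnip3: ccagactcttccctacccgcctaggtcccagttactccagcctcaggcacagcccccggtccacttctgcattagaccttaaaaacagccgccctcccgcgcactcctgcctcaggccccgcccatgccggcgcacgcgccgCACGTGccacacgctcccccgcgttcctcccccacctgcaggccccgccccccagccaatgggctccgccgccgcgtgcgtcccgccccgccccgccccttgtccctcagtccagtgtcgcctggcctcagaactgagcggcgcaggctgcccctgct
The search also covered TGACNNNGC (the core of the antioxidant element bound by NRF2) and GTAAACA (a forkhead element). RefSeq gave 10 windows for 8 receptors; Bnip3l and Wdfy3 had no entry in the table. ACGTG was present in 3 of the 10 windows (Nbr1, Tax1bp1 and Bnip3), against 19.6% of 32851 windows of all genes. CACGTG was in 1 (Bnip3, at -108 from the start), against 7.15%, TGACNNNGC in 1 (Tax1bp1), against 12.4%, and GTAAACA in 0, against 3.65%. These are matches of letters and describe the windows, not binding.

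Optn encodes optineurin, a ubiquitin-binding receptor for bacteria and damaged mitochondria that is phosphorylated by the kinase TBK1. It read 4.07, 4.33, 4.16 and 4.14 in controls and 4.14, 3.85, 4.04 and 3.90 in knockouts. Knockouts 2, 3 and 4 lay below every control, and knockout 1 lay among the controls. The difference was -0.19 (SE 0.10; limma p = 0.088; exact permutation p = 0.0857), or 87.5% of control with an interval of 74.9% to 102%.

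Tax1bp1, a ubiquitin-binding receptor first known as a partner of a viral protein and of the NF-kB regulator A20, showed the smallest spread of the 10. It read 8.63, 8.81, 8.80 and 8.83 in controls and 8.75, 8.81, 8.64 and 8.81 in knockouts. Control 1 and knockout 3 were the low arrays, and the difference was -0.02 (SE 0.09). Calcoco1, a relative of Tax1bp1 that acts as a receptor for the endoplasmic reticulum and Golgi, read 5.39, 5.09, 5.28 and 5.10 in controls and 5.13, 4.97, 5.52 and 5.27 in knockouts. Its highest and lowest arrays were both knockouts, 3 and 2, so the difference of 0.01 (SE 0.13) averaged over a wide spread, and it was -0.09 without knockout 3.

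Tollip, an adaptor of Toll-like receptor signalling that also binds ubiquitin and LC3, read 5.37, 5.51, 5.58 and 5.76 in controls and 5.54, 5.44, 5.53 and 5.54 in knockouts. All 4 knockout arrays lay inside the range of the controls, with a difference of -0.04 (SE 0.10). Wdfy3 encodes ALFY, a very large scaffold that links p62-bound aggregates to the autophagy machinery. The kept Wdfy3 feature read 4.62, 5.15, 5.40 and 5.19 in controls and 5.41, 5.09, 5.29 and 5.22 in knockouts. The difference of 0.16 (SE 0.15) rested on control 1, the lowest array, and was 0.007 without it.

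**Figure D2:**
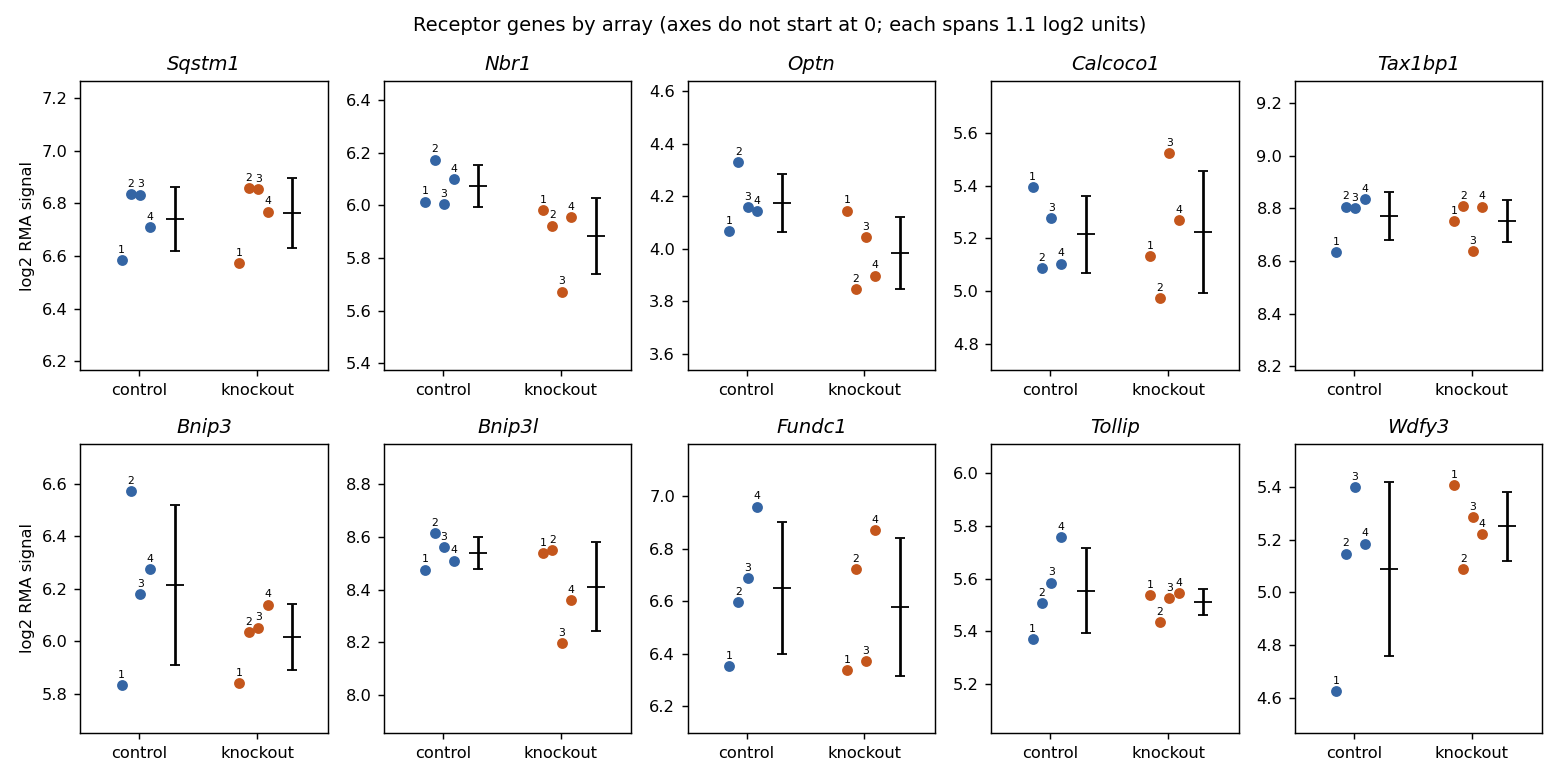
Log2 RMA signal (y axis) of the 10 receptor genes in the control and knockout groups (x axis); points are arrays 1 to 4 from left to right, and bars are the group mean and SD. Groups are apart for Nbr1 (controls at 6.01 to 6.17, knockouts at 5.67 to 5.98) and overlap for the other 9.

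The mitochondrial receptors sit in the outer mitochondrial membrane and bind LC3 and GABARAP directly, without ubiquitin. Bnip3, a HIF-1 target induced by low oxygen, read 5.83, 6.57, 6.18 and 6.27 in controls and 5.84, 6.04, 6.05 and 6.14 in knockouts. Control 1 was the lowest and control 2 the highest of all 8 arrays, so the knockouts lay within the controls. The difference was -0.20 (SE 0.15), or 87.3% of control with an interval of 69.8% to 109%; it was -0.32 without control 1 and -0.08 without control 2.

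Bnip3l encodes NIX, which removes mitochondria from maturing red cells. It read 8.48, 8.61, 8.56 and 8.51 in controls and 8.54, 8.55, 8.20 and 8.36 in knockouts. Knockouts 3 and 4 lay below every control, while knockouts 1 and 2 lay among the controls. The difference was -0.13 (SE 0.10), or 91.4% of control with an interval of 78.1% to 107%, and -0.06 without knockout 3.

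Fundc1, a receptor of hypoxia-induced mitophagy whose gene lies on the X chromosome, read 6.35, 6.60, 6.69 and 6.96 in controls and 6.34, 6.72, 6.37 and 6.87 in knockouts. Control 4 and knockout 4 were the high arrays, and knockout 1, control 1 and knockout 3 the low ones, in both cases across genotypes. The difference was -0.07 (SE 0.16; -0.23 when Xist signal entered the fit, limma adjusted p = 0.701), with an interval of 74.8% to 121% of control.

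Bnip3, Bnip3l and Wdfy3 each had a second feature. The table runs in genome order, in that 95.7% of features with a RefSeq chromosome had neighbours (5 on each side) mostly from the same chromosome. RefSeq places Bnip3 on chromosome 7, yet the kept Bnip3 feature stood among genes of chromosome 14 (7 of 9 neighbours), and the other feature among genes of chromosome 7 (10 of 10). Bnip3l lies on chromosome 14, but its kept feature stood among genes of chromosome 12 (8 of 8) and the other among genes of chromosome 14 (9 of 10). The deposited table does not give probe positions, so what the kept features of these 2 genes hybridise to was not tested.

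The feature among the neighbours of Bnip3l itself separated the knockouts more widely. It read 8.19, 8.30, 8.24 and 8.24 in controls and 8.23, 8.24, 7.81 and 7.86 in knockouts. Knockouts 3 and 4 were low in both features, and knockouts 1 and 2 were within the controls in both. Its difference was -0.21 (SE 0.12; limma adjusted p = 0.9997 over all features; exact permutation p = 0.143), or 86.5% of control. The Bnip3 feature on chromosome 7 read 5.78, 6.18, 6.12 and 6.18 in controls and 5.78, 5.99, 6.15 and 5.80 in knockouts, a difference of -0.13 (SE 0.12). With these features in place of the kept ones, the difference of largest size among the receptors was that of Bnip3l, not of Bnip3.

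The 2 Wdfy3 features, both among genes of chromosome 5 where RefSeq places the gene, gave opposite signs. The feature of lower mean read 5.06, 5.41, 5.10 and 5.32 in controls and 4.88, 5.39, 4.94 and 5.06 in knockouts, a difference of -0.16 (SE 0.13) against 0.16 for the kept one. Knockout 1 was the lowest of the 8 arrays in one feature and the highest in the other. With the 2 features averaged, the difference was 0.003.

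**Figure D3:**
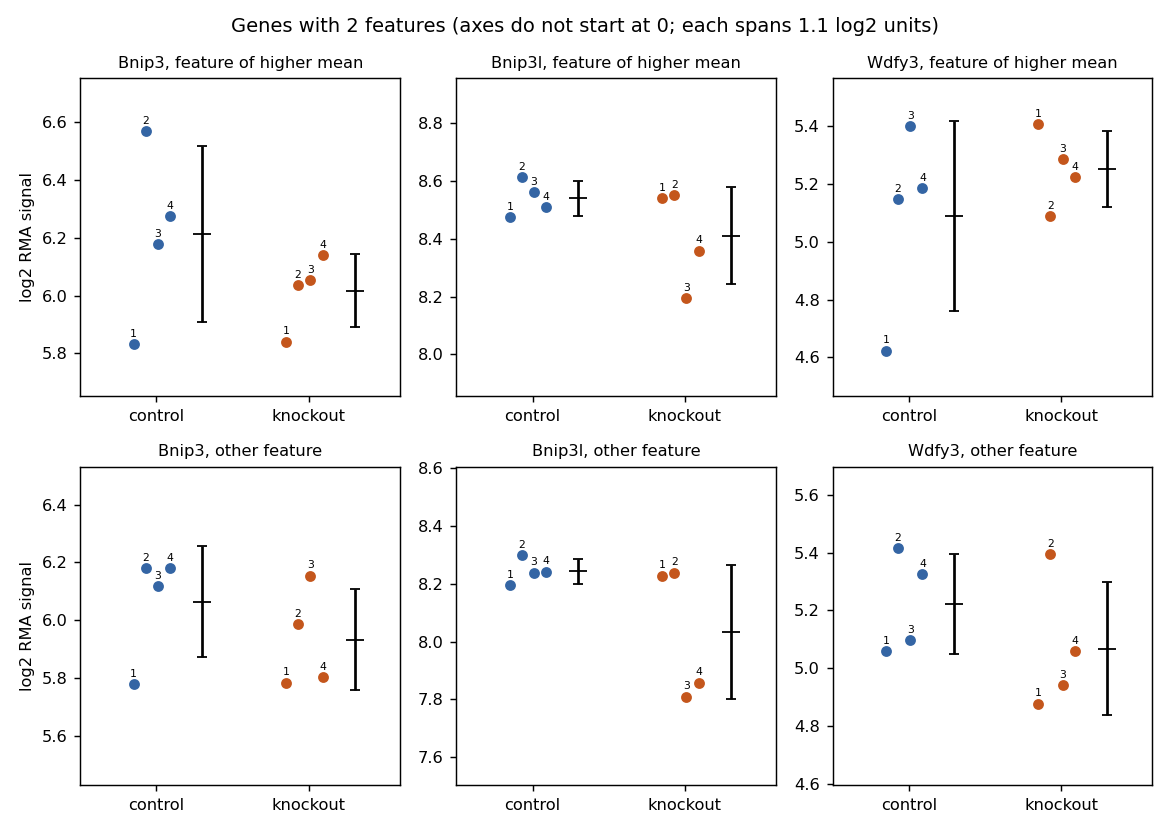
Log2 RMA signal (y axis) of both features of Bnip3, Bnip3l and Wdfy3 in the control and knockout groups (x axis); points are arrays 1 to 4 from left to right, and bars are the group mean and SD. Knockouts 3 and 4 are low in both Bnip3l features (8.20 and 8.36 in the kept one, 7.81 and 7.86 in the other), and the Wdfy3 features order the arrays differently.

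Among the receptors, the spread within a genotype had a common element on 1 array. Control 1 was the lowest control for 8 of the 10 receptors, Nbr1 and Calcoco1 being the exceptions, whereas it was the lowest control for 34.5% of all genes above the background level. Its receptor signals lay a median of 0.19 below the mean of the other controls, beside 0.03 over all genes above the background level. Knockout 3, the array apart on the first component, was the lowest knockout for 3 receptors (Nbr1, Tax1bp1 and Bnip3l), against 38.8% of genes above the background level. No test was made of these counts, which were looked at after the values were seen.

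The proteins that the receptors bind on the autophagosome, the LC3 and GABARAP family, had 0 of 5 transcripts past the test, with 4 differences below 0 and 1 above, a median of -0.02 and a range of -0.09 to 0.02. Gabarapl2 (-0.09, SE 0.15) and Gabarap (-0.05, SE 0.09) had the smallest p. Without knockout 3, Gabarapl2 was at 0.021, Gabarap at -0.002 and the median at 0.021, with 1 of 5 below 0. Control 1 and knockout 3 were also the low arrays for Gabarapl2, at 6.59 and 6.56 against 6.95 to 7.11 on the other 6.

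Other receptors, such as those of the endoplasmic reticulum, ferritin and glycogen, had 0 of 14 transcripts past the test, 8 below 0 and 6 above, with a median of -0.02 (0.015 without knockout 3). Those of smallest p were Stbd1, a glycogen receptor, whose signal was at or below the background level on all 8 arrays, so that no difference is given, and Tecpr1, which helps autophagosomes fuse with lysosomes, at 0.21 (SE 0.09). Calcoco2, better known as NDP52, was likewise at or below the background level on every array. Both are in the count and median above. Among the 12 genes of the list with a mean above that level, 6 were below 0 and the median was 0.0099.

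The PINK1-parkin branch marks damaged mitochondria with ubiquitin so that Optn and Tax1bp1 can bind them. The list for this branch also holds deubiquitinases, other ubiquitin ligases and further genes of mitophagy. Of its genes, 0 of 13 were past the test, 7 were below 0 and 6 above. The median was -0.03 (-0.001 without knockout 3 and 0.0097 without control 4). Park2, the parkin gene, was at or below the background level on all 8 arrays. Among the 12 genes of the list with a mean above that level, 6 were below 0 and the median was -0.0103. Fbxl4, a mitochondrial F-box protein that restrains mitophagy by lowering BNIP3 and NIX protein, read 4.47, 4.37, 4.43 and 4.40 in controls and 4.50, 4.06, 3.57 and 4.09 in knockouts. Knockouts 2, 3 and 4 lay below every control and knockout 1 above every control, and the difference was -0.36 (SE 0.16; limma adjusted p = 0.9996), or -0.20 without knockout 3. Pink1, the kinase, was at -0.12 (SE 0.10), or -0.055 without knockout 3.

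Kinases and signalling partners of the receptors had 0 of 15 past the test, 8 below 0 and 7 above. The median was -0.03 (0.008 without knockout 3 and 0.030 without control 4). Tbk1, whose kinase phosphorylates optineurin and p62, was at -0.10 (SE 0.09; -0.068 without control 4). Azi2, an adaptor of that kinase, was at -0.11 (SE 0.11; -0.053 without knockout 3, -0.18 without knockout 4, -0.17 without control 1 and -0.070 without control 2).

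Transcription factors known to act on receptor genes had 0 of 8 past the test, 5 below 0 and 3 above. The median was -0.02 (-0.014 without knockout 3 and 0.0105 without knockout 4). Mitf, a relative of TFEB and the lineage factor of mast cells and melanocytes, read 4.08, 4.16, 4.05 and 4.16 in controls and 4.25, 4.52, 4.49 and 4.71 in knockouts. All 4 knockout arrays lay above all 4 control arrays, a difference of 0.38 (SE 0.11) that did not pass the test (limma adjusted p = 0.949). Over all genes, 2.90% separated in either direction. The 4 mast cell and basophil marker genes went the other way, with all 4 below 0 and an average of 5.65 to 6.24 in controls and 4.99 to 5.77 in knockouts; none passed the test (3 had an unadjusted p under 0.05), and their part in the Mitf value was not tested. Foxo3, a factor that induces Bnip3 and other autophagy genes in muscle, was at -0.26 (SE 0.13), or -0.15 without knockout 3.

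**Figure D4:**
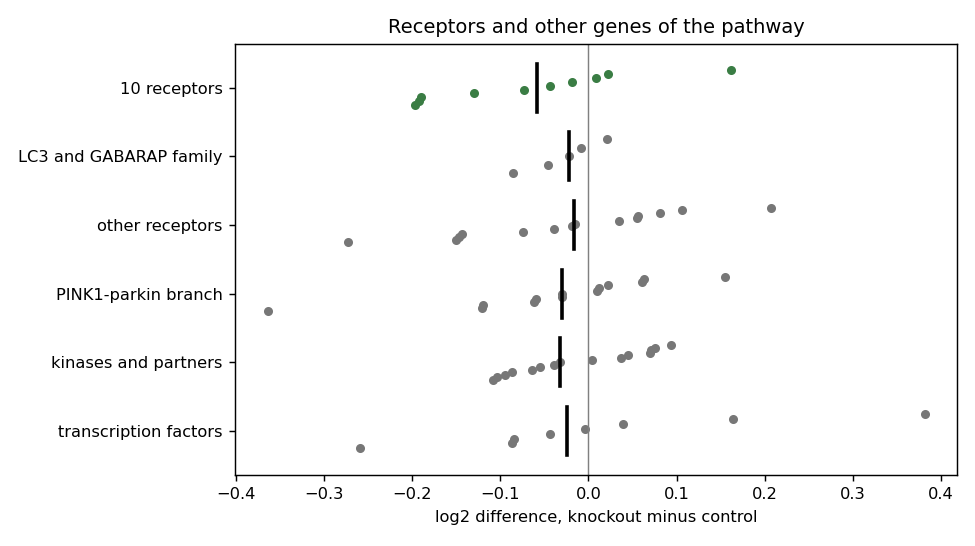
Log2 difference, knockout minus control (x axis), of each gene in the receptor set and in 5 lists of other genes of the pathway (y axis); 1 point is 1 gene and the black bar is the list's median. Medians lie between -0.06 for the receptors and -0.02, and the points of each list fall on both sides of 0. Stbd1, Calcoco2 and Park2, at or below the background level, are included.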

How the data were processed

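RNA of cells sorted as stem cells was run on 4 control and 4 knockout arrays. It was isolated with the PicoPure kit and amplified with Ovation Pico WTA, per the labels' protocols. The deposited values are log2 signals made by the authors, for which the submitters' processing notes list RMA and limma with no version. RMA evens out signal distributions between arrays, so a shift of most genes together would be lost. Annotation and build are not given in the sources used here. Both tables, each of 28853 features, differed by at most 0, and 0 columns were left unmatched; 1494 features without a symbol were left out. Symbols were matched to RefSeq (GRCm38.p6) for chromosomes and promoter windows.

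Knockout was compared with control across 24213 genes with limma 3.58.1 in R 4.3.3 (lmFit, eBayes), with Benjamini-Hochberg adjustment over all genes and a threshold of 0.05. For single genes, exact permutation p-values (two-sided) came from all 70 ways of splitting the arrays. The fit was tested on simulated data. The array number, 4 a group, limits the precision. The members and lists were chosen with earlier results of these data known. Genes named were the 10 receptors, Atg12 and the 2 genes of smallest p in each of the 5 pathway lists; Calcoco2, Park2 and the cell type markers named were added after their values were seen. The erythroid list as a whole is not reported here. Same-numbered arrays of the 2 groups correlated at -0.1 to 0.117 in their deviations from group means, so the numbers were not taken to pair animals. Alternatives comprised the replicate block, omission of each array, a signal filter, other normalizations, other variance settings, array weights, an Xist covariate and other choices of feature; the choice of feature by chromosome was added after seeing the data.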

Additional observations from a re-analysis of the deposited data

Results flagged for a closer look

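Tax1bp1 on control 1 read 8.63, apart from the other 3 controls at 8.80 to 8.83; the gap was 0.837 of the range of the group, above Dixon's 95% critical value for 4 arrays. It was the 1 such case among 20 groups looked at (10 receptors in 2 genotypes), and chance gives about 1 in 20. Without control 1 the Tax1bp1 difference was -0.064, beside -0.02 with it.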

How the results depend on the processing

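Under all alternatives run, 0 of 10 receptors passed the threshold (limma adjusted p 0.559 to 1.0). Nbr1, Optn, Bnip3 and Bnip3l kept the sign of their difference under these alternatives. Wdfy3 came to 0.003 with its features averaged, and its second feature alone was at -0.16. With array weights Sqstm1 was at -0.016 and Calcoco1 at -0.025, each with its sign turned. Leaving out 1 array in turn gave -0.030 to 0.086 for Sqstm1, -0.091 to 0.092 for Calcoco1, -0.064 to 0.019 for Tax1bp1, -0.17 to 0.030 for Fundc1, -0.11 to 0.024 for Tollip, -0.22 to -0.12 for Nbr1 and 0.007 to 0.27 for Wdfy3. The list medians also turned above 0 in some omissions. They ran from -0.0565 to 0.015 for the other receptors and from -0.061 to 0.030 for the kinases and partners. For the PINK1-parkin branch they ran from -0.034 to 0.0097, and for the transcription factors from -0.046 to 0.0105, with 1 array left out. The number of receptors below 0 then ranged from 5 to 8 and their median from -0.13 to -0.01; for the LC3 and GABARAP family, 1 to 4 were below 0 (1 without knockout 3). With Xist signal as a covariate that family's median was -0.11 and the receptors' median -0.14. With the replicate block the receptors' differences were as without it, and the adjusted p of Nbr1 was 0.987. The 1 gene past the threshold, Atg12, was lost (0 genes) with the replicate block, with arrays centred on their median and with the Xist covariate, and with any 1 array left out, when the count was 0 to 3 (3 without control 4). The count at an unadjusted p under 0.05 was 1195, and 2051 with the Xist covariate. The exact permutation p of Nbr1, 0.0286, was under 0.05 at its limma difference of -0.19. Causes of these changes were not tested.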
